A study of Homo sapiens with 4 samples.

Results

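BDP1 and the other genes of the RNA polymerase III initiation factors TFIIIA, TFIIIB and TFIIIC were followed in U87MG cells, an established human glioblastoma line, after silencing of CASP2, the gene of the protease caspase-2. The set holds 10 of the 18404 genes that have a probe set to themselves, measured by 11 of the 32321 probe sets on the arrays, namely the probe sets that the platform annotation ties to one of these gene symbols and to no other. BDP1 is measured by 2 probe sets and each of the other 9 genes by 1. BDP1 was chosen by its fall on these same arrays and the other genes because they work with it, so the values of BDP1 are given as a description, and no interval or p is drawn from them. In such bulk RNA, less RNA of a gene in each cell and fewer cells that express it cannot be told apart. Total RNA came from 2 cultures transfected with a control siRNA and 2 transfected with a siRNA against CASP2, which the labels call biological replicates of one line. No array of an untransfected culture was analysed here. The control oligo that the study's methods list from the supplier named in the labels is a mutated CASP2 oligo. Each probe set has a log2 value per array, made by Robust Multi-Array Average (RMA) on an Affymetrix gene array, and its level cannot be set against that of another probe set.

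RNA polymerase III transcribes short untranslated RNAs such as transfer RNAs, the smallest ribosomal RNA and the spliceosomal RNA of the U6 class. TFIIIC binds the internal promoter elements of transfer RNA genes and brings in TFIIIB, which recruits the polymerase. At the ribosomal gene the zinc finger protein TFIIIA binds first and recruits TFIIIC. TFIIIB is built from BDP1, the TATA-binding protein TBP and either BRF1, at genes with internal promoters, or BRF2, at genes with upstream promoters such as those of U6 RNA.

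Both BDP1 probe sets carry the same 7 transcript accessions in the annotation, so the annotation does not tell which part of the transcript each of them reads. The RefSeq promoter table (build GRCh38.p14) holds one window for BDP1, shown here because the transcripts of both probe sets are assigned to this gene. It is given for the 250 bases before the transcript start, chr5:71455401-71455650 on the plus strand, 5′ to 3′, with the one match to the searched motifs in capitals.

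BDP1: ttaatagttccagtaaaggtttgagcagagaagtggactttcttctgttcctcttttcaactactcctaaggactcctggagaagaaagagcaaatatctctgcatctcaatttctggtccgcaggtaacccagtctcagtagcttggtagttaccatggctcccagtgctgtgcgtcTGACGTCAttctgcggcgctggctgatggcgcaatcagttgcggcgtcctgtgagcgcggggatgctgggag

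The capitals mark TGACGTCA, the cyclic AMP response element, which lies 72 to 65 bases before the start. This octamer was found in 1.65% of all 35116 windows of the same length and, among the 9 members with a window in the table, in BDP1 and GTF3C1. The 9 members have 14 windows, and a member is named if any of its windows holds the motif. Counts of members are thus not on the scale of the shares of windows. The other motifs searched, on both strands, were the E-box CACGTG (6.34% of windows, and GTF3C2, GTF3C4 and GTF3C6 among the members), the GC box GGGCGG (42.6% of windows and 6 members) and TATAAA (10.7% of windows, and GTF3C3). None of these other motifs is written in the BDP1 window, and a match is a run of letters and not a measured binding site. GTF3C1 had a log2 change of 0.03 while the BDP1 probe sets had -1.11 and -0.05, and the E-box genes GTF3C2, GTF3C4 and GTF3C6 had -0.04, 0.12 and -0.10.

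CASP2 itself was at log2 10.74 and 10.69 on the control arrays and at 8.79 and 8.52 on the CASP2 siRNA arrays, a 4.17-fold lower level (log2 change -2.06, SE 0.13). The targeted gene was thus lower on both arrays labelled as silenced. The 7 markers of glioblastoma or mesenchymal lines had log2 values from 6.36 (NES) to 13.04 (VIM). Of the 4 astrocyte markers, AQP4 and S100B lay between 3.71 and 4.01, under the lower quartile of every array, GFAP between 6.34 and 6.79 and SLC1A3 between 8.27 and 8.36. Of the leukocyte markers, PTPRC lay between 3.67 and 3.76, also under that quartile, CD3E between 4.53 and 4.73 and CD14 between 5.01 and 5.55. Markers of the oligodendrocyte lineage ranged from 4.62 to 6.31 and those of neurons from 4.14 to 6.29. Epithelial markers ranged from 3.54 to 7.53 and endothelial ones from 3.10 to 5.73. Of all probe sets, 0 (0%) had an adjusted p under 0.05 in limma, 979 had an unadjusted p under 0.05, and with the thresholds of the study (fold above 1.5 and unadjusted p under 0.05) 117 (0.362%) were lower and 107 (0.331%) higher after CASP2 silencing.

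Of the 11 probe sets of the members, 1 of BDP1 was lower past the thresholds of the study, which is the property that BDP1 was selected on. BDP1 encodes the SANT domain subunit that closes TFIIIB on the DNA. Probe set 8106025 had log2 values of 3.72 and 4.38 on the control arrays and of 2.85 and 3.03 on the CASP2 siRNA arrays. Both silenced arrays lay below both controls, with a gap of 0.69 between the nearest arrays. The log2 change was -1.11 (SE 0.24), 2.16-fold lower or -53.7%. These values chose the gene and have no further weight as evidence.

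The same probe set read near the floor of the arrays. All of its 4 values lay under the lower quartile of their array, which ranged from 4.39 to 4.42, and its control mean of 4.05 ± 0.46 (SD, n = 2) stood at percentile 19.5 of all control means. Its 2 control arrays differed by 0.66, whereas the median difference between the control arrays was 0.12 over the 8080 probe sets with a control mean under the lower quartile, of which 2.51% differed by more than BDP1 did. Without control siRNA replicate 2 the log2 change was -0.78 and without replicate 1 it was -1.44.

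The other BDP1 probe set, 8177560, was at 8.80 and 8.89 on the control arrays and at 8.91 and 8.68 on the CASP2 siRNA arrays, so one silenced array lay above both controls and the other below both. The log2 change was -0.05 (SE 0.12), which is 1.04-fold lower, and without CASP2 siRNA replicate 2 it turned to 0.06. The changes of the 2 probe sets differed by -1.06, a description since one of them chose the gene, and which of them reads the expression of BDP1 was not tested.

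**Figure D1:**
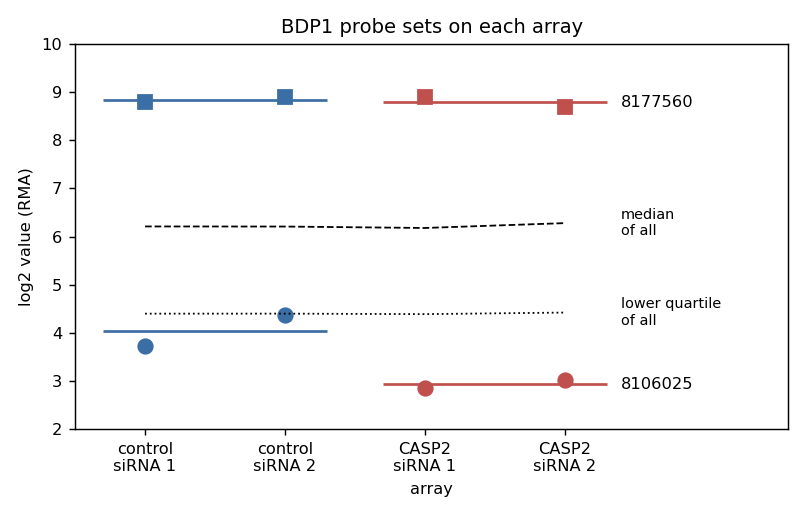
Log2 RMA value (y axis) of the BDP1 probe sets 8106025 (circles) and 8177560 (squares) on each array (x axis), blue for control siRNA and red for CASP2 siRNA. Horizontal bars are group means, the dotted line joins the lower quartiles and the dashed line the medians of all probe sets per array. Probe set 8106025 falls from 4.05 to 2.94 below the lower quartile, and 8177560 stays at 8.84 and 8.79.

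The partners of BDP1 in TFIIIB showed small differences. BRF1, which joins it at genes with internal promoters, was at 8.05 and 8.12 on the control arrays and at 8.01 on both CASP2 siRNA arrays. Its groups did not overlap, but the nearest arrays were only 0.04 apart and the log2 change was -0.08 (SE 0.09, 95% interval -0.32 to 0.17). BRF2, its counterpart at upstream promoters, was at 8.15 and 8.14 on the control arrays and at 8.25 and 7.99 on the silenced ones. The silenced arrays lay on either side of the controls, and the log2 change was -0.03 (SE 0.12, 95% interval -0.36 to 0.30). TBP, the TFIIIB subunit that also serves initiation by the other polymerases, is outside the 10 members. It went from 10.18 and 10.23 to 10.24 and 10.07, a log2 change of -0.05 (95% interval -0.34 to 0.23).

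GTF3A, which encodes TFIIIA, had the lowest change of the genes other than BDP1. It was at 9.75 and 9.83 on the control arrays and at 9.75 and 9.47 on the CASP2 siRNA arrays. The groups did not overlap, by a margin of 0.0041, and the log2 change was -0.18 (SE 0.13, 95% interval -0.53 to 0.17). Relative to the control mean, CASP2 siRNA replicate 1 was at -0.04 and replicate 2 at -0.32.

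TFIIIC has a part that binds the B box of transfer RNA genes and a part that binds the A box and contacts TFIIIB. GTF3C1, the largest subunit, was at 8.87 and 8.88 with the control siRNA and at 8.95 and 8.86 with the CASP2 siRNA. GTF3C2 was at 9.92 on both control arrays and at 9.86 and 9.89 on the silenced ones. GTF3C4, which has histone acetyltransferase activity, was at 8.81 and 8.83 and then at 9.05 and 8.83. Both silenced arrays thus lay above both controls for GTF3C4, by a margin of 0.002, and its log2 change of 0.12 (SE 0.11, 95% interval -0.18 to 0.42) was the highest among the members.

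GTF3C3, the subunit with tetratricopeptide repeats that touches TFIIIB, was at 9.59 and 9.72 on the control arrays and at 9.60 and 9.36 on the CASP2 siRNA arrays. GTF3C5 was at 9.66 and 9.54 and then at 9.66 and 9.53. GTF3C6, the smallest subunit, was at 8.34 and 8.48 and then at 8.37 and 8.26. The log2 changes of GTF3C3, GTF3C5 and GTF3C6 were -0.17 (SE 0.13), -0.01 (SE 0.11) and -0.10 (SE 0.11), with overlapping groups in each case. Those of GTF3C1 and GTF3C2 were 0.03 (SE 0.09) and -0.04 (SE 0.09).

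**Figure D2:**
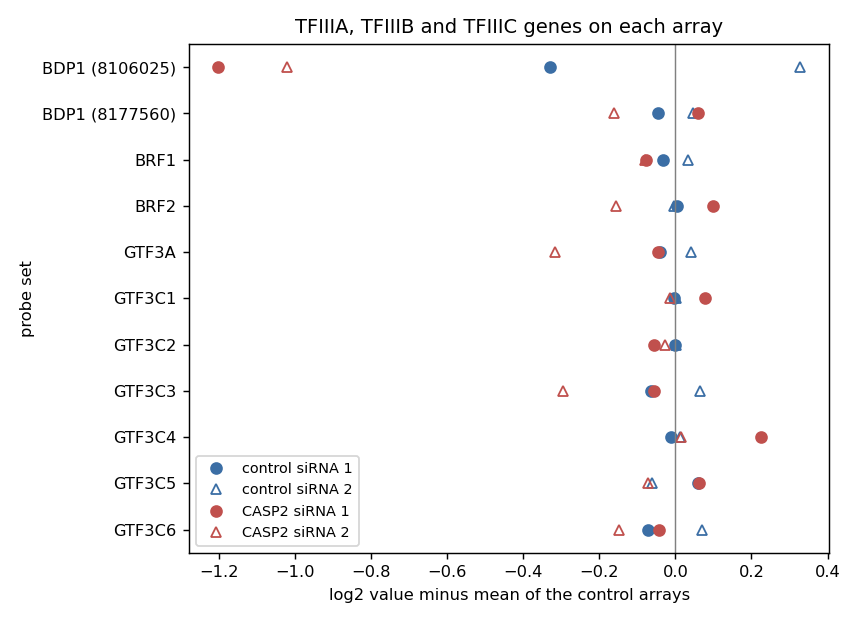
Log2 value per array relative to the control mean (x axis) for the 11 probe sets of TFIIIA, TFIIIB and TFIIIC genes (y axis). Blue is control siRNA, red CASP2 siRNA, filled circles replicate 1 and open triangles replicate 2. BDP1 probe set 8106025 lies at -1.20 and -1.02 on the silenced arrays, and the farthest value of any other member is -0.32, for GTF3A on CASP2 siRNA replicate 2.

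Taking the 9 genes other than BDP1, 7 had a change below 0, the range was -0.18 to 0.12 and the median was -0.04. Over all probe sets 49.3% were below 0, with a median of 0.002. Over the probe sets with 1 symbol at or above the median mean value, which include all 9, it was 56.0%, with a median of -0.02. Without CASP2 siRNA replicate 1 the median was -0.08, with 8 of 9 below 0 and a range of -0.32 to 0.01, and without replicate 2 it was -0.04, with 5 of 9 below 0 and a range of -0.08 to 0.23. All 9 intervals held 0, and together they spanned -0.53 to 0.42, so a 1.5-fold change in either direction lay outside each of them. None of the 9 passed the thresholds of the study. Both silenced arrays were below both controls for 3 of the 9 (BRF1, GTF3A and GTF3C2) and above them for 1 (GTF3C4). Over all probe sets these shares were 15.1% and 14.5%, and 20.6% and 13.8% over those with 1 symbol at or above the median mean value. With BDP1 probe set 8106025 the first count is 4 of 11.

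**Figure D3:**
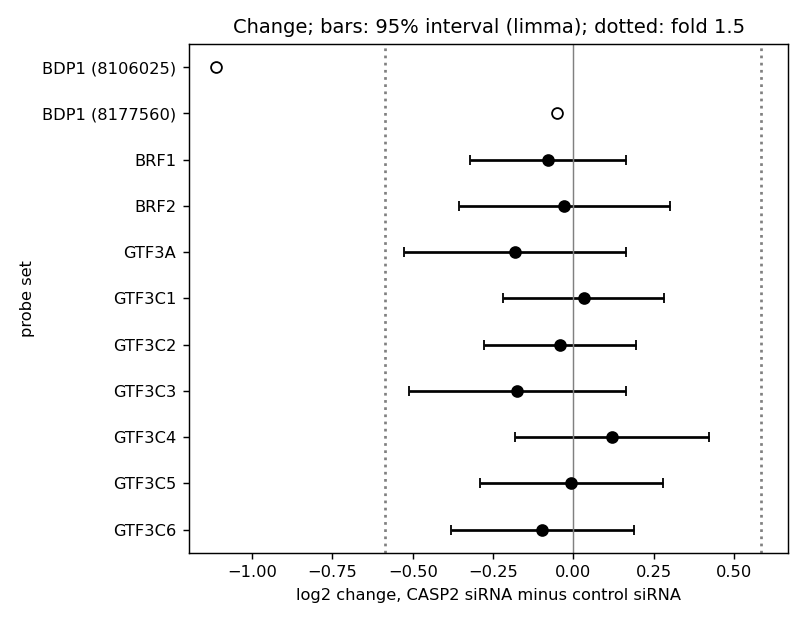
Log2 change, CASP2 siRNA minus control siRNA (x axis), of each member probe set (y axis), over 2 arrays per group. Bars are limma 95% intervals, drawn for the 9 genes other than BDP1, whose probe sets are open circles. Dotted lines mark a fold of 1.5. The BDP1 probe sets lie at -1.11 and -0.05, and the 9 intervals hold 0.

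The CASP2 siRNA arrays differed from each other across these genes. Of the silenced arrays, replicate 2 was the lowest of the 4 arrays for 7 of the 9, which was so for 49.9% of the 11900 probe sets with 1 symbol at or above the median mean value. Replicate 2 also had the highest lower quartile (4.42) and the lowest upper quartile (8.58) of the arrays, against 4.39 to 4.40 and 8.66 to 8.69 on the others. When the log2 values were quantile normalized again, 6 of the 9 genes stayed below 0 and the median was -0.03, while BDP1 probe set 8106025 kept -1.12. The part of this array in the small changes was not tested.

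Other genes of the pathway were examined by lists that cover the polymerase, its helpers and some of its products. Outside the members these lists hold 51 genes with 52 probe sets. Of these 0 passed the thresholds of the study, 39 of the 52 had a change below 0 and the median was -0.06, beside 56.0% below 0 and a median of -0.02 over the probe sets with 1 symbol at or above the median mean value. Replicate 2 was the lowest array for 38 of the 52. Both silenced arrays lay below both controls for 12 (23.1%) and above them for 3 (5.77%). These shares were 15.1% and 14.5% over all probe sets, and 20.6% and 13.8% over those with 1 symbol at or above the median mean value.

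Among 10 subunits particular to RNA polymerase III, 7 were below 0, with a median of -0.07. POLR3A, the largest catalytic subunit, had the lowest change, going from 9.63 on both control arrays to 9.51 and 9.21 (log2 change -0.27, 95% interval -0.63 to 0.09). POLR3B, the second catalytic subunit, had the highest, 0.09 (95% interval -0.30 to 0.48). Of the 7 subunits shared with other polymerases, 6 were below 0, but the median was -0.01. The lowest was POLR1C, shared with RNA polymerase I, at -0.25 (95% interval -0.53 to 0.03), and the highest POLR2K, common to the nuclear polymerases, at 0.01.

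SNAPc, the complex that reads the upstream element of the U6 type of gene, was measured with the activator ZNF143 by 6 genes, of which 5 were below 0. SNAPC5 was the lowest (-0.24, 95% interval -0.69 to 0.22) and SNAPC3 the highest (0.09, 95% interval -0.15 to 0.33). All 5 measured regulators were below 0, beside 56.0% of the probe sets with 1 symbol at or above the median mean value. This list pools genes that restrain the polymerase with the activator MYC, which was at -0.08 (95% interval -0.34 to 0.18). RBL2, a pocket protein of the retinoblastoma family, which restrains the polymerase, went from 8.66 and 8.64 to 8.48 and 8.24 (-0.29, 95% interval -0.61 to 0.02), while RB1 itself was at -0.01. MAF1, the repressor that shuts off RNA polymerase III in starved cells, was at -0.07 (95% interval -0.34 to 0.20).

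Of 15 genes that process or carry the transcripts, 11 were below 0. POP5, a protein of the transfer RNA cleaving enzyme RNase P, was the lowest. It went from 7.81 and 8.02 to 7.73 and 7.33 (-0.38, 95% interval -0.84 to 0.08). RO60, which binds Y RNAs, was the highest (0.13, 95% interval -0.12 to 0.38).

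Of 23 genes for transcripts of RNA polymerase III that were listed by name, 7 were measured, by 8 probe sets. Among these probe sets 4 were below 0 and 4 above, with a median of -0.01. No gene of a transfer RNA, of the smallest ribosomal RNA or of U6 RNA itself was among the 7, so those products were not read. The study isolated its RNA with the RNeasy Mini kit, and how well short RNAs were kept was not tested. Whether these values follow the output of the polymerase was not tested either. RPPH1, the RNA of RNase P, was at 9.20 and 9.10 with the control siRNA and at 9.30 and 9.07 with the CASP2 siRNA. RMRP, the RNA of the related RNase MRP, was at 12.05 and 11.97 and then at 12.20 and 11.99. Neither group was apart from the other for these genes, and their changes were 0.03 and 0.09. The vault RNA VTRNA1-3 had the highest change of this list. It went from 7.37 and 7.50 to 7.86 and 7.74, with both silenced arrays above both controls (log2 change 0.37, 95% interval 0.09 to 0.65, 1.29-fold). For the other vault RNAs the changes were below 0. VTRNA1-2 had the lowest change of the list, -0.23 (95% interval -0.53 to 0.07), and VTRNA1-1 had -0.11 (95% interval -0.40 to 0.18). Both were dim. VTRNA1-1 read near the floor, under the lower quartile of every array, with its control mean at percentile 7.56 of all control means. That of VTRNA1-2 was at percentile 31.9. Whether these small changes reflect the level of the RNAs was not tested. Only VTRNA1-3 had an interval without 0 among the 52 probe sets, and its adjusted p from limma was 0.9999.

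As a comparison, 29 initiation factors of RNA polymerases I and II were measured. Of these 23 were below 0, the median was -0.05, and 0 passed the thresholds of the study. Both silenced arrays lay below both controls for 10 (34.5%) and above them for 2 (6.90%), beside 15.1% and 14.5% of all probe sets. Over the probe sets with 1 symbol at or above the median mean value these shares were 20.6% and 13.8%, and 56.0% were below 0. Replicate 2 was the lowest array for 23. UBTF, the upstream binding factor of ribosomal RNA genes, was the lowest, at 9.63 and 9.66 and then 9.35 on both silenced arrays (log2 change -0.30, SE 0.09, 95% interval -0.54 to -0.06). Here the silenced arrays lay together, and the adjusted p from limma was 0.9999. TAF7, a TFIID subunit, was the highest (0.25, 95% interval -0.07 to 0.58).

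**Figure D4:**
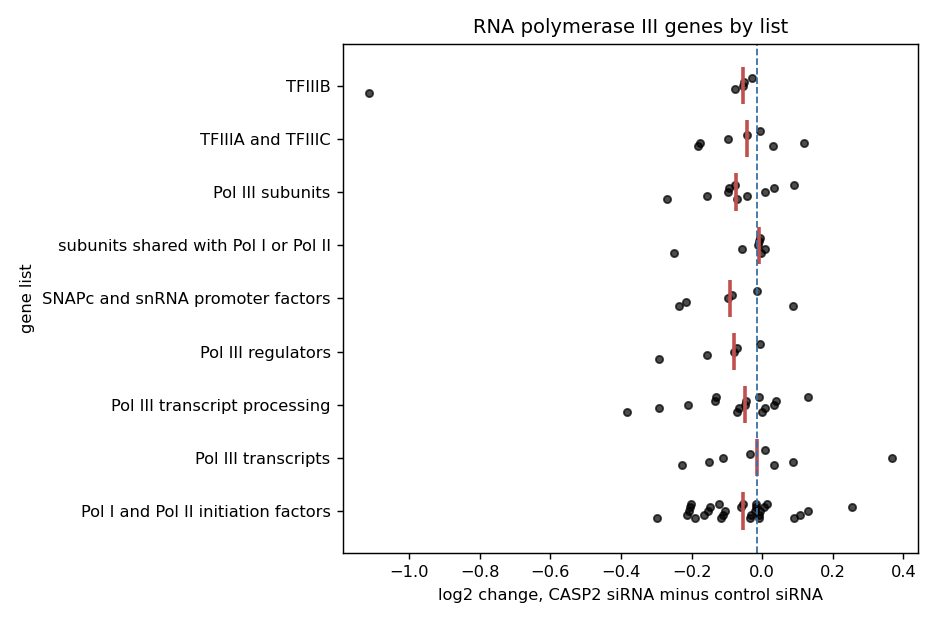
Log2 change, CASP2 siRNA minus control siRNA (x axis), of every probe set in each gene list (y axis, spread vertically for legibility), with the list median as a red bar. The dashed line is the median, -0.02, of probe sets with 1 symbol at or above the median mean value. Apart from BDP1 probe set 8106025 at -1.11, the values lie between -0.38 (POP5) and 0.37 (VTRNA1-3).

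**Figure D5:**
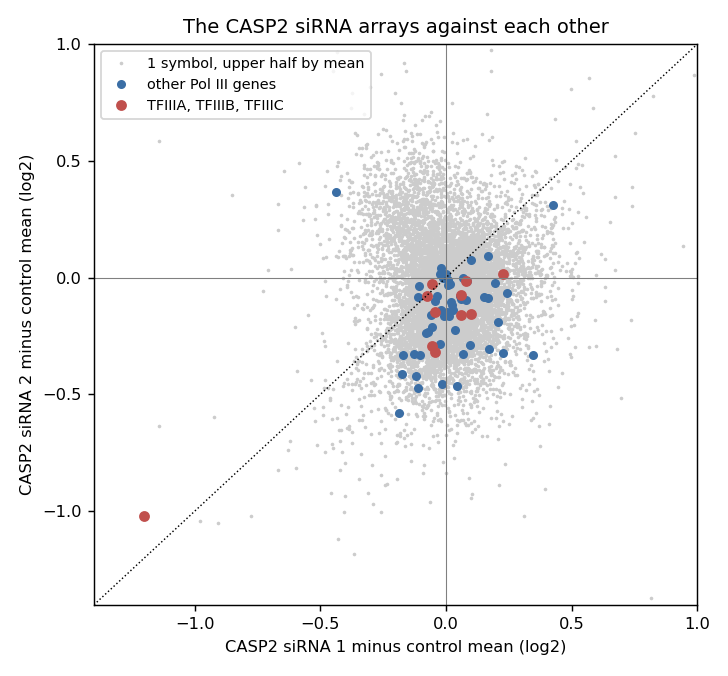
Log2 value of CASP2 siRNA replicate 1 (x axis) and replicate 2 (y axis), each minus the control mean, for the members (red), the other genes of the pathway (blue) and probe sets with 1 symbol at or above the median mean value (grey, 3 of which fall outside the axes). The dotted line marks equal values. Of the 9 genes other than BDP1, 8 lie under this line, as do 45 of the 52 other probe sets of the pathway and 67.0% of the grey ones.

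BDP1 probe set 8106025 was also set beside all probe sets with 1 symbol by its profile, that is the log2 value on each of the 4 arrays minus the control mean. The nearest by Euclidean distance were the complement factor CFB (0.40), the CDC42-binding kinase CDC42BPB (0.51) and the acetyltransferase KAT2B (0.51). This profile holds the fall that chose BDP1, so its neighbours are by construction probe sets with a like fall. The distances are a description only. CFB, by its probe set 8118345, also shared the spread of the control arrays, at 6.34 and 7.08, before 5.57 and 6.08. CDC42BPB and KAT2B had close control arrays, at 9.75 and 9.77 and at 9.66 and 9.73, and fell to 8.78 and 8.71 and to 8.79 and 8.65.

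In the RefSeq gene order, the nearest protein-coding genes on one side of BDP1 that have a probe set of their own are MCCC2, a mitochondrial carboxylase subunit, CARTPT, a neuropeptide precursor, and MAP1B, a microtubule-associated protein. Their log2 changes were 0.08 (95% interval -0.27 to 0.43), 0.09 (95% interval -0.34 to 0.52) and 0.09 (95% interval -0.17 to 0.36). None of the 3 followed the fall of probe set 8106025. CARTPT was dim, at 4.34 and 4.24 on the control arrays and at 4.18 and 4.57 on the CASP2 siRNA arrays, about their lower quartile. On the other side, none of the nearest 3 genes has a probe set tied to it alone.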

How the data were processed

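Total RNA of 4 U87MG cultures was hybridized to Affymetrix Human Gene ST arrays. The authors normalized the arrays by RMA (version not stated) and deposited log2 values for 32321 probe sets. RMA equalizes probe distributions between arrays, which removes most of a shift of all genes, and compresses folds of dim probe sets. Genes were named from the platform annotation, with 19158 probe sets tied to 1 symbol, 1388 to several and 11775 to none. Symbols were updated by gene ID through the RefSeq table (GRCh38.p14) for 19128, and only probe sets with 1 symbol were named. Groups were taken from the sample titles. A limma 3.58.1 model (lmFit and eBayes, R 4.3.3) compared CASP2 siRNA with control siRNA at every probe set, and the two-sided p-values were adjusted over the whole table by Benjamini-Hochberg. Residual degrees of freedom were 2 and prior degrees of freedom 2.47. The labels call the samples biological replicates, with no further detail, so errors measure the spread between these arrays, and their number limits the precision. The fit was tested on simulated data. The members and gene lists were chosen with earlier results of these data known. The text names all probe sets of the members, CASP2, and in each list the genes past the thresholds or otherwise the highest and lowest. It also names the 3 nearest profiles to the BDP1 probe set with the larger change, and the 3 nearest protein-coding genes on each side of BDP1. TBP, MYC, MAF1, RB1, RPPH1, RMRP and VTRNA1-1 were added for their roles after their values were seen. Alternatives were the methods' t-test, eBayes with trend and robust options, quantile normalization, median centring, leaving out dim probe sets, means of linear values, a block for the replicate number, omission of single arrays, and the brightest probe set per gene. The file holds no column of another series.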

Additional observations from a re-analysis of the deposited data

How the results depend on the processing

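The change of BDP1 probe set 8106025 stayed below 0 under every alternative that holds it, between -1.44 and -0.78 with each array left out. Both silenced arrays lay below both controls, so leaving out an array could not turn this sign. The sign is thus no support for the fall that chose BDP1. Probe set 8106025 was no longer past the thresholds of the study with the methods' t-test. It is absent without dim probe sets and with the brightest probe set per gene. Each of these 3 alternatives left 0 members past the thresholds. The numbers of all probe sets past the thresholds, 117 lower and 107 higher, became 37 and 35 with the methods' t-test and 33 and 22 without dim probe sets, and ranged from 157 to 592 lower and from 118 to 414 higher with each array left out. In the latter fits an arm of 1 array is assumed to vary like the other. With each array left out, the median change of the members ranged from -0.15 without CASP2 siRNA replicate 1 to -0.040 without control siRNA replicate 2, and with quantile normalization it was -0.03. A replicate block cannot alter a change in this balanced design, so BDP1 probe set 8106025 is at -1.11 there too. With the block 160 probe sets were lower and 142 higher past the thresholds. Over all probe sets the differences between replicates 1 and 2 correlated with r = 0.020 between the groups. The labels give only a replicate number, and whether arrays of the same number were handled together was not tested. Signs of small changes turned with single arrays left out. Without CASP2 siRNA replicate 2, BRF2 was at 0.10 and GTF3C5 at 0.06, without control siRNA replicate 1 GTF3C5 was at 0.05, and without CASP2 siRNA replicate 1 GTF3C1 was at -0.01.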
